A study of Mus musculus with 7 samples.

Results

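The genes of the FoxO transcription factors Foxo1, Foxo3 and Foxo4, and 7 genes that act in their signalling pathway or are known as their targets, were compared between control cells and cells lacking Lockd. The 7 others are Insr, Irs2 and Pik3ip1, which belong to insulin and PI3K signalling, and Ccng2, Btg1, Cited2 and Tsc22d3, which have been tied to slower growth, survival or quiescence. The genes were chosen by name, with earlier results of these data already known. Each was read from a probeset annotated with its symbol alone, and where a gene had several, the brightest on average was taken. All 10 were measured, out of 22180 genes with such a probeset, and only Foxo1 had a further probeset.

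RNA came from G1E, a line of immature mouse erythroid precursors made from cells without the erythroid factor GATA1. The control group held 3 arrays of G1E cells with intact Lockd (Lockd WT), and the deletion group held 4 arrays of G1E cells from which Lockd had been removed with CRISPR/Cas9 (Lockd deletion). The missing GATA1 and the G1E growth medium were common to both groups, and the labels name no drug or induction. Next to Lockd, which gives a long non-coding RNA, lies Cdkn1b, the gene of the cyclin-dependent kinase inhibitor p27. The study's samples are called clones of the line, but the labels do not say which arrays came from which clone or culture, so the p-values reflect the spread among these 7 samples alone, some of which may be technical. A deletion also removes DNA, and in this design the effects of the transcript and of the removed sequence cannot be told apart.

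FoxO factors are forkhead transcription factors that act where growth factor signalling is low. Insulin and cytokine receptors signal through PI3K to the kinase AKT, which phosphorylates FoxO proteins and keeps them out of the nucleus, so that much of their control lies in the protein and is not seen in RNA. In the nucleus they raise genes of cell cycle arrest, stress resistance and autophagy, among them Cdkn1b. Foxo3 is the family member best known in red cell formation, where it supports maturation and antioxidant defence, and Btg1 has been described as its target in erythroid cells.

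The values are log2 RMA values, in which the arrays were brought to a common distribution, and a difference is deletion minus control on that scale. The 7 arrays correlated at 0.993 to 0.996 over the tested probesets, and the array farthest from the rest, on a leading principal component with 29.9% of the variance, was control replicate 2. Of the 22180 genes, 2 passed limma's test after Benjamini-Hochberg adjustment, Lockd and Cdkn1b, which is 0.00902%. Lockd read 7.80 to 8.04 in control and 4.17 to 5.15 in deletion cells. Both calls were lost with all probesets of the array tested, with the replicate number as a block in the fit, and without any one of control replicates 1, 2 and 3 or deletion replicates 1 and 4, and that of Cdkn1b also without deletion replicate 3. Over all settings the adjusted limma p was 6.17e-05 to 0.109 for Lockd and 0.00042 to 0.68 for Cdkn1b. The differences ran from -3.10 to -2.78 for Lockd and from -1.21 to -1.08 for Cdkn1b. All 13 measured erythroid genes of 16 listed were brighter than the median gene, with levels between 8.45 and 13.3. Of genes that mark other lineages, 4 of 12 mast cell and basophil genes, 2 of 6 megakaryocyte genes, 1 of 8 myeloid genes and 0 of 6 lymphoid genes were brighter than the median gene. The mean level of the mast cell list was 5.58 to 6.23 over the control and 5.44 to 5.85 over the deletion arrays. Those of the megakaryocyte list were 5.54 to 5.82 and 5.60 to 5.72, of the myeloid list 4.93 to 5.08 and 4.98 to 5.11, and of the lymphoid list 4.77 to 4.89 and 4.65 to 4.86. The part of these genes in the results that follow was not tested. Among them only Tph1, a tryptophan hydroxylase gene of mast cells, differed by more than 1 on the log2 scale, by -2.03 (SE 0.29), with an adjusted p of 0.516 in limma. The mast cell genes Cpa3, Rgs13 and Ms4a2 varied widely within the groups. Cpa3 read 9.53 to 11.97 in control and 9.88 to 11.48 in deletion cells. The differences were -0.70 (SE 0.62) for Cpa3, -0.71 (SE 0.52) for Rgs13 and 0.10 (SE 0.64) for Ms4a2.

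None of the 10 genes passed the test. In limma, 0 of the 10 had an adjusted p under 0.05 and 2, Ccng2 and Foxo3, had an unadjusted p under 0.05, where 4.61% of all genes did and 2.37% did with a negative difference. The same 2 genes were those whose deletion arrays all lay below all control arrays, as was so for 2.54% of all genes. The adjusted p was 0.999 for each of the 10. In RNA from whole cultures, fewer cells with a transcript and less of it per cell cannot be told apart. With so few genes, 2 of 10 is a small count to set against such shares. The difference was below 0 for 8 of the 10, with a median of -0.07, and for 47.8% of all genes, with a median of 0.01. Except for Ccng2, the differences lay between -0.19 and 0.16, and their 95% intervals lay between -0.53 and 0.41, that is from 30.9% lower to 32.6% higher. Cdkn1b itself, the FoxO target beside the deleted gene, differed by -1.14 (SE 0.10), below every one of those intervals.

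**Figure D1:**
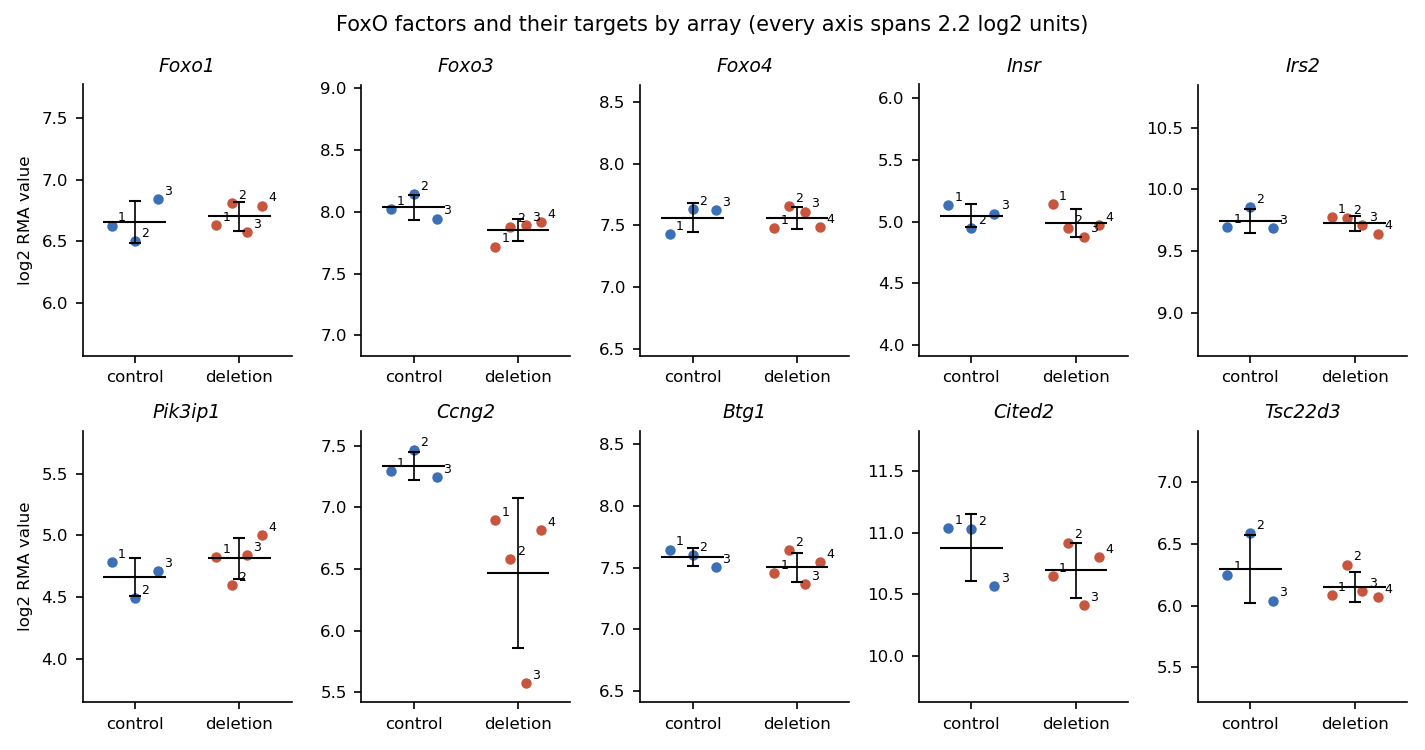
Log2 RMA value of each of the 10 genes on each array, control in blue (n = 3) and deletion in red (n = 4), with the replicate number beside each point, the group mean as a line and the SD as a bar. Every panel spans the same range, and the groups are apart for Foxo3 and Ccng2, with Ccng2 at 5.57 on deletion replicate 3.

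Foxo3 was the FoxO gene whose groups did not overlap. Its values, in the order of the replicate numbers as for every gene below, were 8.02, 8.15 and 7.95 in control cells. In deletion cells they were 7.72, 7.88, 7.89 and 7.91. The gap between the groups was narrow, with the lowest control array just above the highest deletion array, and deletion replicate 1 was lower than the other deletion arrays. The control mean was 8.04 ± 0.10 (SD, n = 3) and the deletion mean 7.85 ± 0.09 (SD, n = 4). They differed by -0.19 (SE 0.08) with a 95% interval of -0.37 to -0.0047, which corresponds to 12.1% less signal (0.325% to 22.5%), and the unadjusted limma p was 0.0455. Without control replicate 2, the highest array, the difference was -0.13 with an unadjusted p of 0.151.

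Foxo1 gave different readings on its 2 probesets. The brighter, used for the gene, read 6.63, 6.50 and 6.84 in control and 6.63, 6.81, 6.58 and 6.79 in deletion cells. These groups overlapped throughout, with a difference of 0.05 (SE 0.10, 95% interval -0.18 to 0.27), and -0.03 without control replicate 2. The dimmer probeset read 5.62, 5.31 and 5.66 in control and 5.75, 5.76, 5.88 and 5.94 in deletion cells. Here every deletion array lay above every control array, as was so for 2.65% of all genes. The difference was 0.30 (SE 0.10) with a 95% interval of 0.07 to 0.53, or 23.2% more signal. In limma its p was 0.0165 before and 0.999 after adjustment, and 2.24% of the genes passed 0.05 before adjustment in this direction. Without control replicate 2, the lowest array of that probeset, the difference was 0.19 with an unadjusted p of 0.0531. Where on the Foxo1 transcript the probes of either set lie was not analysed here.

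Foxo4, the X-linked member of the family, showed the smallest difference of the 10. It read 7.43, 7.63 and 7.63 in control and 7.48, 7.65, 7.61 and 7.48 in deletion cells. The values of the groups interleaved, and the difference was -0.01 (SE 0.08, 95% interval -0.19 to 0.18). The sign turned to positive under 7 of the other settings, with no value beyond 0.03 on that side. Foxo6, the remaining family gene, differed by 0.02 (SE 0.10).

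The genes of insulin and PI3K signalling among the 10 did not separate the groups. Insr, the insulin receptor gene, read 5.14, 4.95 and 5.06 in control and 5.14, 4.95, 4.88 and 4.97 in deletion cells, a difference of -0.06 (SE 0.08), and -0.03 without deletion replicate 3. Irs2, an adaptor that carries the receptor's signal to PI3K, read 9.69, 9.86 and 9.68 in control and 9.78, 9.77, 9.71 and 9.64 in deletion cells, a difference of -0.02 (SE 0.07), and 0.03 without control replicate 2. Insr and Irs2 are both known FoxO targets, and the groups overlapped on each. Pik3ip1, whose product restrains PI3K, read 4.79, 4.49 and 4.71 in control and 4.82, 4.60, 4.84 and 5.00 in deletion cells. Deletion replicates 1, 3 and 4 lay above all controls and deletion replicate 2 did not. The difference was 0.16 (SE 0.11, 95% interval -0.10 to 0.41), the highest of the 10, and 0.07 without control replicate 2. Insr and Pik3ip1 were also the members dimmer than the median gene, which stood at 5.72, and background can hide part of a difference at such levels.

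Ccng2 had by far the widest difference. It encodes cyclin G2, an unusual cyclin that accumulates in cells leaving the cycle and is a known FoxO target. It read 7.29, 7.46 and 7.24 in control and 6.89, 6.58, 5.57 and 6.81 in deletion cells. All 4 deletion arrays lay below all 3 controls, and deletion replicate 3 lay a full log2 unit below the next lowest. The control mean was 7.33 ± 0.12 (SD, n = 3) and the deletion mean 6.47 ± 0.61 (SD, n = 4). The difference was -0.87 (SE 0.29) with a 95% interval of -1.52 to -0.21, or 45.2% less signal (13.8% to 65.2%). In limma its p was 0.0152 before and 0.999 after adjustment. Its spread within the groups, 0.48, was wider than that of 99.2% of all genes. Without deletion replicate 3 the difference was -0.57 with an unadjusted p of 0.000894 and an adjusted p of 0.676. Ccng1, the related cyclin gene and a p53 target, differed by 0.00 (SE 0.07).

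**Figure D2:**
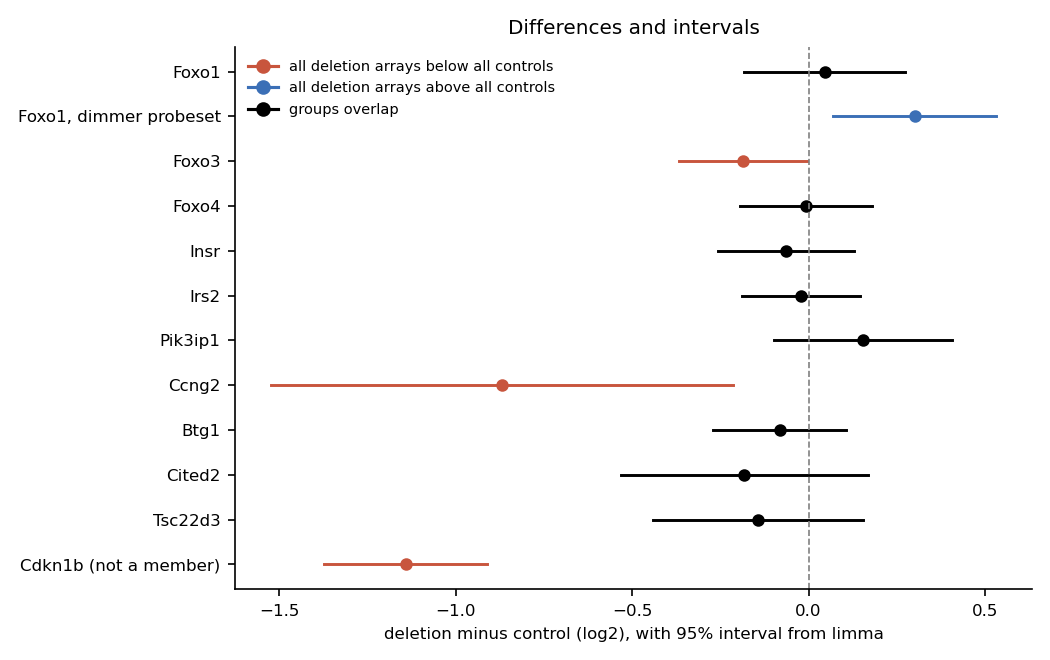
Difference, deletion minus control in log2 units, of each of the 10 genes, of the dimmer Foxo1 probeset and of Cdkn1b, with 95% intervals from limma. Colour marks whether the deletion arrays all lay below (red) or above (blue) the controls, and the interval of Ccng2, -1.52 to -0.21, is the widest.

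The groups overlapped on the remaining targets, Btg1, Cited2 and Tsc22d3. Btg1, an antiproliferative gene of the BTG and TOB family, read 7.65, 7.61 and 7.50 in control and 7.46, 7.65, 7.37 and 7.54 in deletion cells, a difference of -0.08 (SE 0.08). Without deletion replicate 3 it was -0.04. Deletion replicate 2 was level with the highest control array, so the groups were not apart. Cited2, a transcriptional co-regulator needed for blood stem cell maintenance, read 11.04, 11.03 and 10.56 in control and 10.64, 10.92, 10.41 and 10.80 in deletion cells. Control replicate 3 alone lay within the deletion range. The difference was -0.18 (SE 0.15), and without that array it was -0.34, with an unadjusted p of 0.0423 and an adjusted p of 0.683. Without deletion replicate 3 it was -0.09. Tsc22d3, the gene of the glucocorticoid-induced leucine zipper protein, read 6.25, 6.59 and 6.04 in control and 6.08, 6.33, 6.12 and 6.07 in deletion cells. Its difference of -0.14 (SE 0.13) rested on control replicate 2, and it was 0.00 without that array and -0.27 without control replicate 3.

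**Figure D3:**
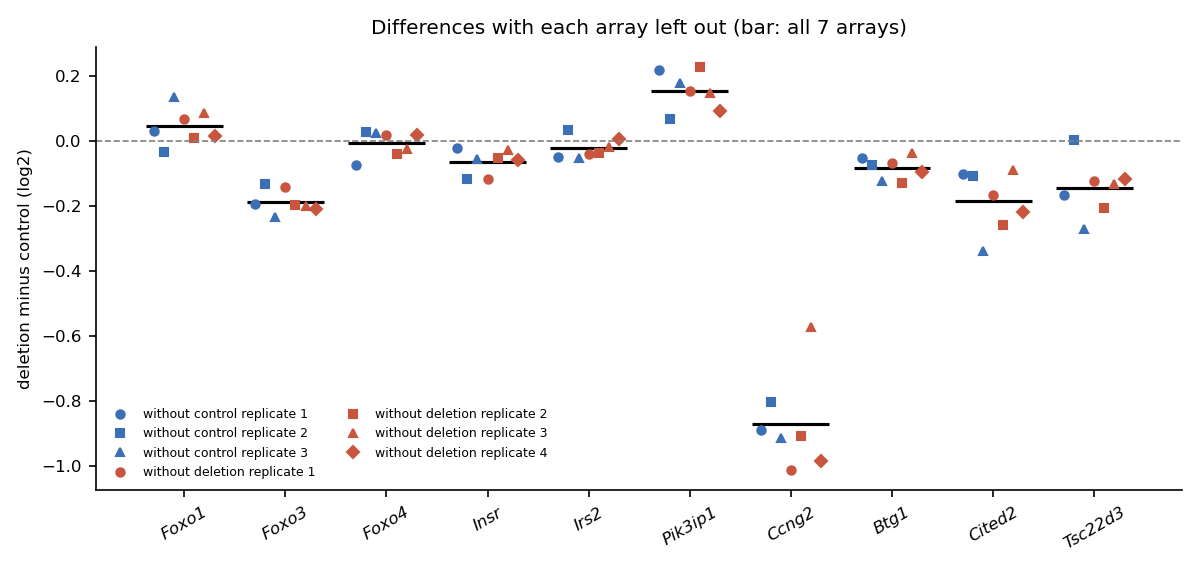
Difference of each of the 10 genes, deletion minus control in log2 units, with all arrays (black bar) and with each array left out in turn (points; blue for a control, red for a deletion array). Ccng2 stays below 0 throughout, between -1.01 and -0.57, while Tsc22d3, Irs2, Foxo1 and Foxo4 reach or cross 0.

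Single arrays recurred across the 10 genes. Deletion replicate 3 was the lowest of the 7 arrays for 4 of them, Ccng2, Insr, Cited2 and Btg1, and for 12.5% of all genes. Control replicate 2, the outlying array of the component analysis, was the highest for 4, Foxo3, Ccng2, Irs2 and Tsc22d3, and for 19.2% of all genes. It was the lowest array for Foxo1 and Pik3ip1. Without deletion replicate 3, the differences of those 4 genes lay between -0.57 for Ccng2 and -0.03 for Insr. Without control replicate 2, the differences of the 4 genes highest on it were -0.80 for Ccng2, -0.13 for Foxo3, 0.00 for Tsc22d3 and 0.03 for Irs2. Since each set of 4 was picked by the array left out, a rise in the difference is fixed by the choice. These values are given as a description only.

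The upstream sequences of the genes were searched for the letters GTAAACA, the core of the forkhead recognition sequence, on both strands of the 250 bases before each annotated start. The windows come from RefSeq on GRCm38.p6, and 8 of the 10 genes matched an entry, with 10 windows among them. Windows of Foxo4 and Insr were not analysed here. The letters occurred in 1 of the 10 windows, that of Btg1, in 4 of 37 windows of other FoxO targets (Bbc3, Bcl2l11, Trim63 and Txnip), and in 3.17% of 32851 windows in all. A selection of 3 windows is shown, each running up to the base before the start and written along the gene's strand. That of Btg1 (chr10:96616751-96617000, plus strand) holds the match, which begins 204 bases before the start, reads GTAAACA on the opposite strand and is in capitals. Those of Ccng2 (chr5:93267323-93267572, plus strand) and Foxo3 (chr10:42276696-42276945, minus strand), the genes whose groups did not overlap, hold none.
Btg1: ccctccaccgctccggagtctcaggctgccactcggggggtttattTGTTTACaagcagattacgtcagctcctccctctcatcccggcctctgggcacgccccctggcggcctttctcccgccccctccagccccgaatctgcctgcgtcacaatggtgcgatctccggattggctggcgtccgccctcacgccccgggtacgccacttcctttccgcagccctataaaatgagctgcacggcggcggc
Ccng2: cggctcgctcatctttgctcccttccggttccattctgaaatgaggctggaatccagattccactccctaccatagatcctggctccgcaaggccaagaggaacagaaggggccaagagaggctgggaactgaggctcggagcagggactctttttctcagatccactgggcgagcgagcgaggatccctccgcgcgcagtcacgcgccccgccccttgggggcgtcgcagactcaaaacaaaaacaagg
Foxo3: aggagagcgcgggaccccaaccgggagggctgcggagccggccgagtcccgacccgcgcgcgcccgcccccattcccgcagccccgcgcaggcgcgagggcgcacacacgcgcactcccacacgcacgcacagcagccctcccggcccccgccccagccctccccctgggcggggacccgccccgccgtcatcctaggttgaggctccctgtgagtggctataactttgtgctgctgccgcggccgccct
A match describes these letters only, and the gene that had one, Btg1, differed by -0.08. Of the other targets with a match, Bbc3 differed by -0.11 (SE 0.12), Bcl2l11 by 0.02 (SE 0.12), Txnip by -0.02 (SE 0.12) and Trim63 by 0.14 (SE 0.07), with all deletion arrays of Trim63 above the controls. The G and C content of the windows was 65.2% for Btg1, 59.6% for Ccng2 and 76.4% for Foxo3.

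The next genes are those that feed into FoxO. Of 34 listed genes of PI3K and AKT signalling 32 were measured. In limma 0 passed and 0 had an unadjusted p under 0.05, in a setting where 4.61% of all genes did. The difference was below 0 for 25 of the 32, where it was for 47.8% of all genes, with a median of -0.03. The smallest p values were those of Mlst8, a subunit shared by both mTOR complexes, at 0.10 (SE 0.07), of Rheb, the GTPase that activates mTOR, at 0.09 (SE 0.06), and of the adaptor gene Grb10 at -0.14 (SE 0.10). The deletion arrays of Rheb, at 10.77 to 10.85, all lay above its controls, at 10.66 to 10.76. Akt1 and Akt2, the kinase genes, differed by 0.11 (SE 0.11) and 0.00 (SE 0.08). Gab1 and Pik3cd had wider values, -0.52 (SE 0.53) and -0.44 (SE 0.72), with errors at least as large as the difference.

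Of 36 listed regulators and partners of the FoxO proteins 35 were measured, and in limma 0 passed and 0 had an unadjusted p under 0.05. Their median was 0.00, and 17 lay below 0 and 18 above. The list holds the 14-3-3 genes, whose proteins hold phosphorylated FoxO in the cytoplasm, and of these Ywhae and Ywhaz differed by -0.01 (SE 0.06) and -0.02 (SE 0.06). Sirt1, a deacetylase of FoxO proteins, differed by 0.03 (SE 0.07) and Xpo1, the nuclear export receptor, by 0.05 (SE 0.06). The smallest p values were those of Prkaa2, a catalytic subunit of AMP-activated kinase, at -0.10 (SE 0.06), of the stress kinase gene Mapk14 at 0.10 (SE 0.07), and of Foxm1, a forkhead factor of dividing cells, at -0.08 (SE 0.07).

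Other FoxO targets were measured for 39 of 41 listed genes. Cdkn1b passed, and 1 more, Bnip3, had an unadjusted limma p under 0.05. That makes 2 of 39, where 4.61% of all genes did and 2.37% did with a negative difference, so the count is near the background. The list's median was 0.01, and 18 lay below 0 and 21 above. Bnip3, a receptor for mitophagy, read 9.90, 9.86 and 9.57 in control and 9.32, 9.22, 9.16 and 9.27 in deletion cells. All its deletion arrays lay below the controls, by 0.54 (SE 0.09), with an adjusted p of 0.855. The third smallest p was that of the CDK inhibitor gene Cdkn2d at -0.20 (SE 0.09). Of antioxidant and stress genes in the list, Cat differed by -0.10 (SE 0.07), Sod2 by 0.02 (SE 0.07), Prdx3 by -0.07, Sesn1 by -0.03 (SE 0.07) and Sesn3 by 0.09. The value of Gadd45b, -0.08, had a 95% interval of -0.64 to 0.48. Rbl2, which encodes the quiescence protein p130, differed by -0.05 (SE 0.09).

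Relatives of the 10 genes were measured for 16 of 17 listed, with 8 below 0 and 8 above and a median of -0.01. In limma 0 passed and 0 had an unadjusted p under 0.05. The smallest p values were those of Btg4 at -0.18 (SE 0.10), Tsc22d1 at 0.18 (SE 0.10) and Tsc22d4 at -0.09 (SE 0.07). Tob1 and Btg2, growth-restraining relatives of Btg1, differed by -0.02 (SE 0.13) and -0.10 (SE 0.14).

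**Figure D4:**
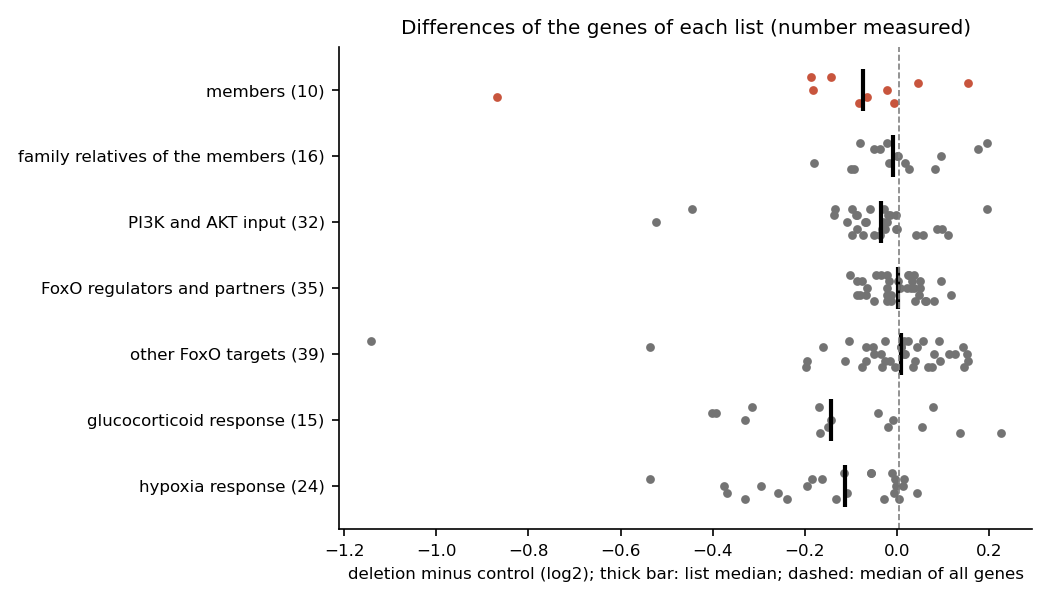
Differences, deletion minus control in log2 units, of each measured gene of the 10 and of 6 lists around them, with the median of each list as a bar and that of all genes as a dashed line. Medians lie at -0.14 for the glucocorticoid list and -0.11 for the hypoxia list, and between -0.07 and 0.01 for the others.

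A glucocorticoid and a hypoxia list were added because some of the 10 genes are known to respond to other signals as well. Both lists were chosen with earlier results of these data known, so their counts and medians are given as a description only. Tsc22d3 is induced by glucocorticoids, and of the 15 glucocorticoid-response genes, all measured, 0 passed in limma and 3 had an unadjusted p under 0.05, where 4.61% of all genes did. These were Fkbp5, a co-chaperone of the receptor, at 0.23 (SE 0.08), the phosphatase gene Dusp1 at -0.40 (SE 0.15) and Ddit4, an inhibitor of mTOR signalling, at -0.33 (SE 0.14). They did not share a direction, and without deletion replicate 1 neither of the negative pair stayed under 0.05. With an array left out, the unadjusted limma p reached 0.0577 for Fkbp5, 0.121 for Dusp1 and 0.18 for Ddit4. The list's median was -0.14, with 11 of the 15 genes below 0, against 47.8% of all genes. Tsc22d3 is itself in this list, lies below 0 and is its median gene.

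Ccng2 and Cited2 are also known to respond to low oxygen. Of 26 hypoxia-response genes 24 were measured, 0 passed in limma and 8 had an unadjusted p under 0.05, all 8 with a negative difference, where 2.37% of all genes had one. That count was 4 without control replicate 1 and 5 without deletion replicate 4. The median was -0.11, with 20 genes below 0, as were 47.8% of all genes. In 6 of the 24 the deletion arrays all lay below the controls, as in 2.54% of all genes. Bnip3 had the smallest p, and the next were the mitochondrial protein gene Higd1a at -0.38 (SE 0.08) and the glucose transporter gene Slc2a1 at -0.37 (SE 0.11). Slc2a1 read 11.85, 11.84 and 11.51 in control and 11.42, 11.38, 11.18 and 11.47 in deletion cells. Deletion replicate 3 was its lowest array, as it was for Ccng2, for 10 of the 24 genes and for 12.5% of all genes. Any link between the genes of this list and Ccng2 or Cited2 was not tested. Bnip3 and Ddit4 each stand in 2 of the lists, as do Sgk1, Irs1, Igf1r and Il7r, so the lists are not independent. Hif1a, the oxygen-regulated factor gene, differed by -0.03 (SE 0.07).

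The genes most like Ccng2 and Foxo3 were ranked by the root mean square difference over the 7 arrays of values centred on each gene's mean, among genes that varied at least 0.75 times as much. Genes picked this way follow the values of Ccng2 or Foxo3 by choice, so their differences and their highest and lowest arrays are largely set by it and are given as a description. For Ccng2 the closest of 167 was Ndufa4l2, a mitochondrial protein gene, at 0.19. It read 10.40, 10.67 and 10.45 in control and 9.96, 9.89, 9.18 and 9.77 in deletion cells, a difference of -0.81. The next were Zbtb16 at 0.36 and Zfp827 at 0.40, whose groups overlapped. For Foxo3 the closest of 15076 was Nr3c1, the glucocorticoid receptor gene, at 0.04. It read 10.003, 10.114 and 9.954 in control and 9.708, 9.916, 9.834 and 9.963 in deletion cells, with the groups just overlapping and a difference of -0.17. Speer5-ps1 and Gm20300 followed, each also at 0.04. Speer5-ps1 read only 3.34 to 3.76 over the 7 arrays, dimmer than the median gene at 5.72.

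**Figure D5:**
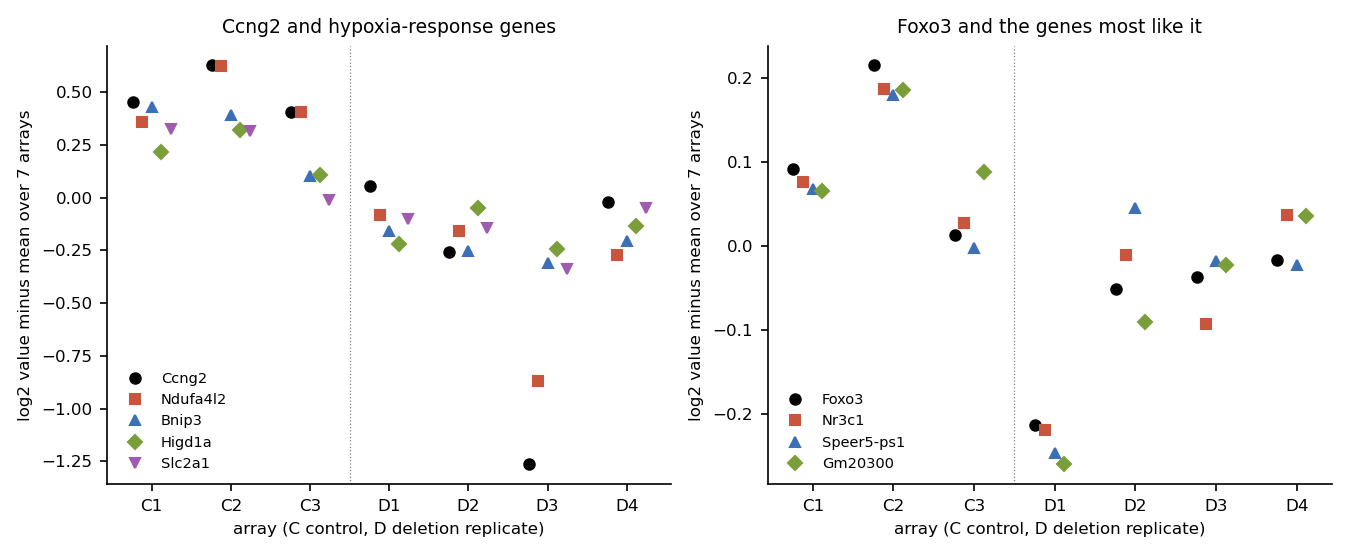
Log2 values minus each gene's mean over the 7 arrays (C control, D deletion replicates), on the left for Ccng2, the gene most like it and the 3 hypoxia-response genes with the smallest p, and on the right for Foxo3 and the 3 genes most like it. Ccng2 and Ndufa4l2 are lowest on deletion replicate 3, and Foxo3 and its 3 closest genes are highest on control replicate 2 and lowest on deletion replicate 1.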

How the data were processed

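The 7 samples, 3 control and 4 deletion by their titles, are total RNA on the Mouse Gene 2.0 ST array. Per the submitters' processing notes, the authors made the deposited log2 values with Expression Console and its RMA method. No source used here gives versions or a genome build. RMA gives no detection call, and the number of arrays limits the precision. Of 41345 probesets, 23521 had exactly 1 symbol in the platform annotation and were tested, 1814 had several and 16010 were unnamed here. A gene stands for its brightest probeset.

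The test was limma 3.58.1 in R 4.3.3 (lmFit and eBayes, both groups in 1 fit, two-sided, no covariate or filter), with Benjamini-Hochberg adjustment over the 23521 probesets and a threshold of 0.05. The fit was tested on simulated data. Lists are described by counts and medians, without a test. The members, lists and tests were chosen with earlier results of these data known. Text names the 10 genes, Lockd and Cdkn1b, of each list the genes that passed or, with none, the 3 with the smallest p, and the 3 genes most like Ccng2 and Foxo3. Other genes are named for their role or after their values were seen. Alternatives were other probeset filters, scalings, variance models, array weights, a replicate block and leaving out each array.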

Additional observations from a re-analysis of the deposited data

Results flagged for a closer look

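The lowest deletion array stood apart from the other 3 for Lockd and for Zfp827, a zinc finger gene named for its likeness to Ccng2, by Dixon's criterion at the 95% level, which chance meets in about 1 in 20 groups and which 2 of the 50 groups tested met. Lockd read 4.17 on deletion replicate 3 and 5.09 to 5.15 on the other deletion arrays. Zfp827 read 4.56 on the same array and 6.66 to 6.97 on the others, and since it was picked for following Ccng2, a low value on that array is largely set by the choice. Of the 10 FoxO genes and targets, 0 met the criterion, and Ccng2, at 5.57 on that array, did not.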

How the results depend on the processing

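The count of members past the threshold was 0 under every alternative run, with adjusted p values of 0.676 or more. The count with an unadjusted limma p under 0.05 and a negative difference was 2, and 1 with all probesets of the array, after median centring, with array weights and with the replicate block, and 1 to 3 with an array left out, 3 without control replicate 3. Ccng2 stayed under an unadjusted p of 0.05 throughout, with differences of -1.01 to -0.57. The count of members below 0 was 6 to 8 with an array left out. The count whose groups did not overlap was then 2 to 3, with Cited2 added without control replicate 3. Fewer arrays make it easier for groups not to overlap. Shares of all genes under these alternatives are not given here, so the changes in the members' counts cannot be set against a background. Of all tested probesets, 2 passed, and 0 with all probesets or the replicate block and 0 to 2 with an array left out, where Lockd and Cep126 passed without deletion replicate 3.

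Signs turned in 12 of 158 member values. Foxo4 was 0.0039 after quantile normalization, 0.028 with array weights and 0.018 with the replicate block, and -0.073 to 0.029 with an array left out. Irs2 was 0.0060 with the replicate block and -0.052 to 0.034 with an array left out, where Foxo1 ran from -0.032 to 0.137 and Tsc22d3 from -0.270 to 0.0035. Cd3e, a lymphoid gene, ran from -0.118 to 0.0096, positive without control replicate 3. Some list counts with an unadjusted limma p under 0.05 and a negative difference moved with trended, robust variances. They were 5 in place of 2 for other FoxO targets and 5 in place of 2 for glucocorticoid genes. The share of all genes under that setting is not given here, so these counts cannot be set against a background. Median centring moved the median of all genes from 0.01 to -0.02.

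The labels do not say whether shared replicate numbers pair the samples. Deviations of same-numbered arrays correlated at 0.0248, 0.0611 and -0.098. Those of differently numbered control and deletion arrays correlated at -0.171 to 0.169. With so few arrays, such correlations cannot decide whether the samples were paired. The replicate block leaves deletion replicate 4 without a partner, and Ccng2 was -0.98 in it. The sample descriptions number the deletion arrays from 2 to 5, and by those numbers control replicates 2 and 3 would go with deletion replicates 1 and 2, whose deviations correlated at -0.171 and -0.0994. No block on those numbers was run.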
